A study of Homo sapiens with 6 samples.

Results

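Small nucleolar RNAs (snoRNAs) and small Cajal body RNAs (scaRNAs) were followed as WA09 cells, a human embryonic stem cell line in wide use, were differentiated into nascent mesoderm and smooth muscle cells. They were taken as every gene whose symbol begins with SNORA, SNORD or SCARNA followed by a digit, which gave 192 of the 18417 genes with a probe set of their own on the array. They comprised 115 box C/D snoRNAs (SNORD, 3 of them SNORD13P pseudogenes), 61 box H/ACA snoRNAs (SNORA) and 16 scaRNAs. Total RNA was hybridised to Affymetrix expression arrays, with 2 arrays for each of 3 groups. The hESC group was undifferentiated WA09 cells in StemPro defined medium. The INM group was ISL1-positive nascent mesoderm at day 4, and the SMC group was smooth muscle cells at day 21. Both derivatives came from WA09 cells given 25 ng/ml Wnt3a plus 50 ng/ml BMP4 in a defined medium, and no genetic change is named for any group. All groups thus share 1 cell line, and the labels do not say whether replicates were grown apart, so the p-values reflect the spread between these arrays, possibly technical, and no more.

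SnoRNAs are short RNAs that sit in protein complexes of the nucleolus and pair with other RNAs. Box C/D snoRNAs guide 2′-O-methylation by fibrillarin, box H/ACA snoRNAs guide pseudouridylation by dyskerin, and their main targets are ribosomal RNAs. A few snoRNAs instead take part in cleaving the ribosomal RNA precursor, and scaRNAs carry the same boxes but act on spliceosomal RNAs in Cajal bodies. In human cells nearly all snoRNAs are cut from introns of host genes, many of which encode ribosomal proteins or translation factors, while others are long noncoding RNAs (lncRNAs) such as GAS5 and the SNHG genes. Many of these hosts begin transcription with a run of pyrimidines, as the genes of ribosomal proteins do.

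The starts of lncRNA hosts whose snoRNAs are described below are shown because they differ in whether the letters CTTT, a short pyrimidine run, lie near the start. Each window holds 30 bases before and 30 bases from the annotated start, 5′ to 3′ on the strand of the gene, from RefSeq (GRCh38.p14). Capitals mark CTTT where they begin within 5 bases of the start.
SNHG5 (chr6:85678704-85678763, minus strand): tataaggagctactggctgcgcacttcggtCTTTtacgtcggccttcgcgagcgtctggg
SNHG32 (chr6:31834886-31834945, plus strand): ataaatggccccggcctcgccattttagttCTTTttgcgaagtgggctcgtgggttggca
ZFAS1 (chr20:49278612-49278671, plus strand): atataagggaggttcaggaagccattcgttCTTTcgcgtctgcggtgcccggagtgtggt
SNHG4 (chr5:139274071-139274130, plus strand): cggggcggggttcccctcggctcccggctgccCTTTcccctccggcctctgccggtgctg
SNHG1 (chr11:62855856-62855915, minus strand): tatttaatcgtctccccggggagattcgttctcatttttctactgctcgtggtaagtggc

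In SNHG5, SNHG32 and ZFAS1 the letters began at the annotated start itself, and in SNHG1 they did not occur within 5 bases of it. Of the 95 host genes assigned, 79 had a start window, and CTTT began within 5 bases of the start in 24 of them (30.4%). The same was found in 2168 of 27305 genes with a start window (7.94%). Among lncRNAs it was found in 6 of 14 hosts (42.9%) and in 7.07% of all lncRNA genes of the reference. The reverse complement AAAG began there in none of the 79 hosts and in 4.92% of all genes. These are matches of letters and no evidence of a site. The letters of the snoRNAs themselves were not used here, except for the end of SCARNA16, given with the scaRNAs.

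Deposited signals were log2 values, and a difference of 1 is a factor of 2 in signal. Differences between group means were tested with limma over all 18417 genes, with Benjamini-Hochberg adjustment, and a gene was called higher or lower at an adjusted p under 0.05. With 2 arrays a group, an exact permutation test of a single gene cannot go below p = 0.333. The low-signal limit used below, 5.044, was the lowest array median of the probe sets without a gene symbol. Of the 192 RNAs, 153 had a group mean above it and 39 did not.

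The labels could be set against markers. Stem cell markers had array medians of 10.7 and 11.1 in hESC, 6.80 and 6.90 in INM, then 6.27 and 6.21 in SMC. All 10 ISL1 mesoderm markers were higher in INM than in hESC, ISL1 itself at 9.46 and 9.55 against 5.54 and 5.28. All 10 were also higher in SMC than in hESC, and from INM to SMC 6 were lower and 2 higher. Of 10 smooth muscle markers 8 were higher in SMC than in hESC, with ACTA2 at 13.09 and 13.03 in SMC. However, MYH11, the myosin of mature smooth muscle, was as low in SMC (5.59 and 5.43) as in hESC (5.77 and 5.51). In INM 5 of these 10 markers were already higher than in hESC and 1 was lower, with ACTA2 at 11.97 and 10.85. From INM to SMC 4 were higher and 1, MYOCD, was lower. The array medians of this list were 8.85 and 8.91 in INM, then 9.26 and 9.43 in SMC. Endothelial markers had medians of 6.88 and 6.92 in SMC against 5.87 to 6.0 in the other groups, and blood, cardiomyocyte, neuroectoderm and endoderm markers had medians of 5.88 to 7.21 in every array; the part of such cells in the results was not tested. The INM arrays were less alike than the others, since 700 genes differed by over 1 between them against 16 in hESC and 11 in SMC. Of the 192 RNAs, 5 did so in INM, 3 in hESC and 0 in SMC.

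Most snoRNAs and scaRNAs had less signal in nascent mesoderm than in stem cells. Of the 192, 113 fell, 4 rose and 75 were not called, where 14.8% of all genes were called lower and 18.9% higher. The median difference was -0.74, against -0.03 over all genes. The median signal of the 192 was 7.06 and 7.31 in the hESC arrays, 6.37 and 6.26 in the INM arrays and 6.47 and 6.57 in the SMC arrays. Both INM arrays and both SMC arrays thus lay below both hESC arrays, whereas the median over all genes stayed between 7.10 and 7.19. For 138 of the 192, every INM array was below every hESC array, which was the case for 34.9% of all genes.

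The scale of the arrays moved with this result. Probe sets without a gene symbol had medians of 5.62 and 5.65 in hESC, 5.11 and 5.04 in INM, then 5.34 and 5.31 in SMC, and 9097 of these 12083 probe sets were lower in INM than in hESC. Their part in the result was not tested. When each array was centred on the median of all its probe sets, the median difference over all genes went from -0.03 to 0.16 and that of the 192 RNAs to -0.55, with 98 called lower and 10 higher. Lower calls as a share of all calls went from 43.9% to 23.8% over all genes and from 96.6% to 90.7% over the 192 RNAs. In whole-culture RNA, fewer cells that hold an RNA and less RNA per cell cannot be told apart. Likewise the signal of an intronic snoRNA and that of its unspliced host RNA cannot be told apart.

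The 3 classes moved in the same direction. Of the 115 box C/D snoRNAs 61 fell in INM and 2 rose, with a median difference of -0.68. Of the 61 box H/ACA snoRNAs 46 fell and 1 rose, with a median of -0.87. Of the 16 scaRNAs 6 fell and 1 rose, with a median of -0.57. The box C/D class includes 46 snoRNAs of the imprinted clusters described below, and among the 69 outside those clusters 46 fell and none rose (median -0.85). No difference between classes was tested.

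**Figure D1:**
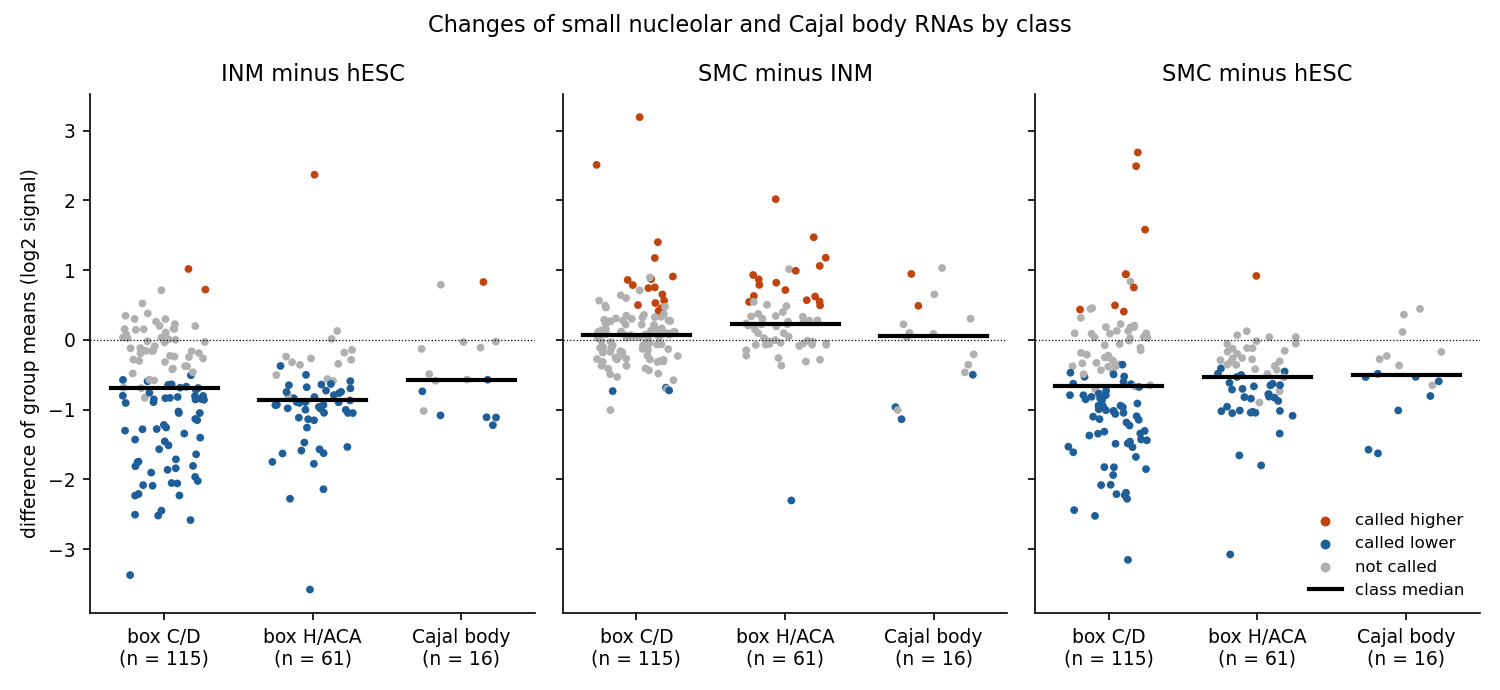
Difference of group means (log2 signal, y axis) of each snoRNA or scaRNA, by class (x axis) and in 3 panels by comparison; each point is 1 RNA, coloured by its call, and black bars are class medians. In INM minus hESC the medians of the 3 classes lie between -0.87 and -0.57, and in SMC minus INM between 0.06 and 0.24.

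Fewer of the 192 RNAs were called lower in INM when either hESC array was left out, and so were fewer of all genes. The median difference of the 192 RNAs was -0.87 without hESC replicate 1 and -0.65 without hESC replicate 2. Of the 113 falls, 74 were called in each of the 6 fits that left out 1 array.

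SnoRNAs carried by lncRNAs outside the imprinted clusters showed a median difference of -1.28 in INM. Of these 25 RNAs 21 fell and none rose, and 17 of the 21 were called whichever array was left out. GAS5, a growth-arrest transcript that codes for no protein and holds many box C/D snoRNAs in its introns, hosted 7 of them. All 7 fell, with a median of -2.02. SNORD75, a guide for large-subunit rRNA, had signals of 8.99 and 9.46 in hESC, 6.91 and 6.50 in INM, then 8.08 and 7.68 in SMC. The INM arrays were lowest and the groups did not overlap, with a difference between INM and hESC of -2.52 (SE 0.23, limma adjusted p = 0.000578). SNORD81, also a large-subunit guide, went from 9.40 and 9.88 to 7.52 and 7.31, a difference of -2.23 (SE 0.18, limma adjusted p = 0.000351).

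SNORD74, with the highest signal of the GAS5 snoRNAs, had 11.48 and 11.55 in hESC, 9.23 and 9.69 in INM, then 10.26 and 10.15 in SMC. Its difference between INM and hESC was -2.06. SNORD44, a guide for small-subunit rRNA, had 9.48 and 9.56 in hESC, 7.48 and 7.52 in INM, then 8.20 and 7.92 in SMC, and it fell by 2.02 in INM. SNORD77 had the lowest signal, with group means of 4.89 in hESC, 3.64 in INM and 3.40 in SMC, all under the low-signal limit. It had the smallest fall (-1.26), which was not called without hESC replicate 2. GAS5 had no probe set of its own, so the host RNA was not read apart from its snoRNAs.

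From INM to SMC, SNORD75, SNORD81, SNORD74 and SNORD44 rose by 1.17, 0.86, 0.74 and 0.56. Their limma adjusted p-values were 0.0153, 0.0187, 0.0262 and 0.0291. None of the 4 rises was called without SMC replicate 1 or without SMC replicate 2, where the largest adjusted p-values were 0.115, 0.122, 0.16 and 0.181, and those of SNORD74 and SNORD44 were lost without either hESC array too. All 7 GAS5 snoRNAs were lower in SMC than in hESC (median -1.43), but SNORD77 and SNORD79 were not called without SMC replicate 2 (limma adjusted p = 0.0723 and 0.0882).

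**Figure D2:**
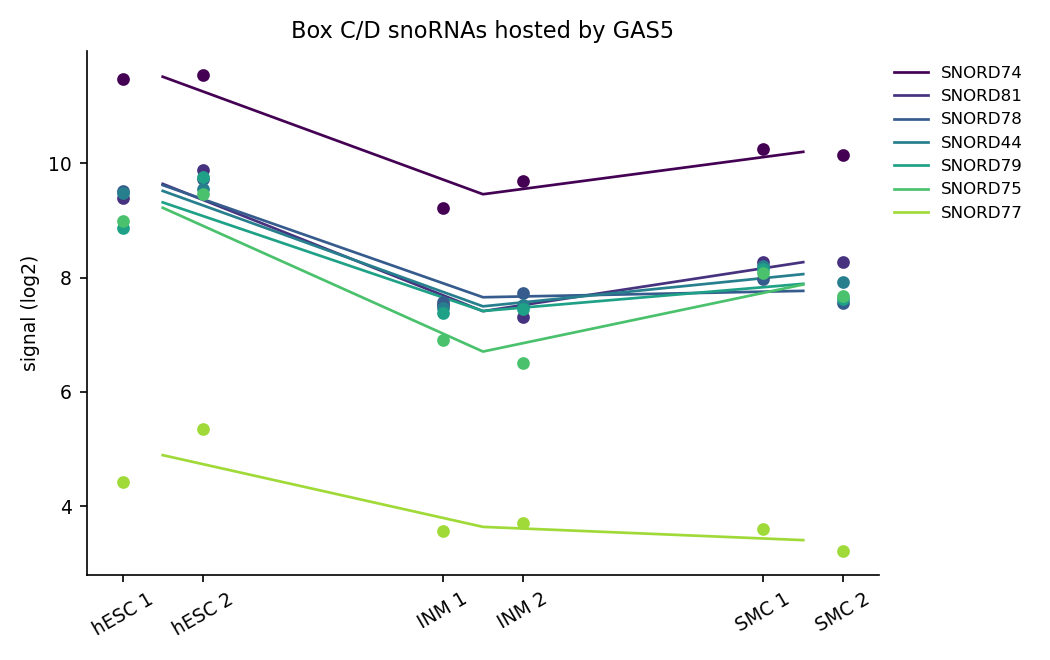
Signal (log2, y axis) of the 7 box C/D snoRNAs hosted by GAS5 in each of the 6 arrays (x axis); points are arrays and lines join group means. For 4 of them, SNORD75, SNORD81, SNORD74 and SNORD44, the INM arrays are lowest and the SMC arrays lie between INM and hESC.

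Falls among the snoRNAs of other lncRNA hosts varied in size. The 3 snoRNAs of SNHG17 had differences of -0.89 to -0.28 in INM, and 2 of them were called lower. The 2 of SNHG16 had -2.05 and -0.41, and 1 was called lower. SNHG1, whose start is printed above without CTTT, hosted SNORD28, a small-subunit guide with 10.86 and 11.14 in hESC, 8.60 and 8.94 in INM, then 9.0 and 8.62 in SMC. It fell by 2.23 in INM (SE 0.19, limma adjusted p = 0.000469) and its SMC arrays overlapped its INM arrays. SNORD12C in ZFAS1, SNORD50A in SNHG5 and SNORD52 in SNHG32, whose hosts have CTTT at the start, were picked after their values were seen. SNORD12C had 8.76 and 9.03 in hESC and 6.69 and 6.93 in INM, and fell by 2.09. SNORD50A and SNORD52 fell by 1.71 and 1.28. SNHG1 was the only host printed above without CTTT, and a link between these letters and the falls was not tested.

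SNORA60 in SNHG11 behaved otherwise. This box H/ACA snoRNA had 6.49 and 6.30 in hESC, 6.17 and 6.34 in INM, then 7.46 and 7.17 in SMC. Its SMC arrays were above all others, with differences of 1.06 from INM (SE 0.15, limma adjusted p = 0.00439) and 0.92 from hESC (limma adjusted p = 0.00368).

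Ribosomal protein genes hosted 32 of the RNAs, of which 23 fell in INM and none rose (median -0.85), and 16 of the 23 were called whichever array was left out. The introns of a single host did not move as a unit.

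In RPL23A, a large-subunit protein, SNORD4A had 8.49 and 8.65 in hESC and 6.66 and 6.99 in INM, a fall of 1.75 (SE 0.15, limma adjusted p = 0.000403). Its neighbour SNORD4B fell by 1.64. SNORD42A in the same host gene, a guide for small-subunit rRNA, had 7.14 and 7.90 in hESC and 7.25 and 6.87 in INM, so its arrays overlapped and the difference of -0.46 was not called.

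RPL13A hosted 4 snoRNAs, of which SNORD34 alone was called lower in INM. SNORD33 had signals of 11.74 and 11.86 in hESC and 11.74 and 11.63 in INM, with a difference of -0.12. SNORD32A had 9.20 and 9.17 in hESC and 9.83 and 9.58 in INM, a difference of 0.52 that was not called (limma adjusted p = 0.0603). SNORD35A differed by -0.12. SNORD34 fell by 0.80, and this call was lost after median centring and with 5 of the 6 arrays left out in turn, all but INM replicate 1 (limma adjusted p up to 0.219).

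In RPL3, SNORD43, a small-subunit guide, fell by 0.85 (limma adjusted p = 0.00333) and SNORD83B fell by 0.67, whereas SNORD83A differed by 0.11 and was not called. SNORD83B was not called without either hESC array (limma adjusted p up to 0.1). NCL, which encodes the nucleolar protein nucleolin and is not a ribosomal protein gene, also held snoRNAs that differed. Its box H/ACA snoRNA SNORA75 had 8.39 and 8.69 in hESC, 6.34 and 6.46 in INM, then 6.83 and 6.94 in SMC, a fall of 2.14 in INM (SE 0.14, limma adjusted p = 0.000179). Its box C/D snoRNAs SNORD20 and SNORD82 differed by 0.00 and -0.16 and were not called, SNORD20 at signals of 3.39 to 4.02, under the low-signal limit.

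**Figure D3:**
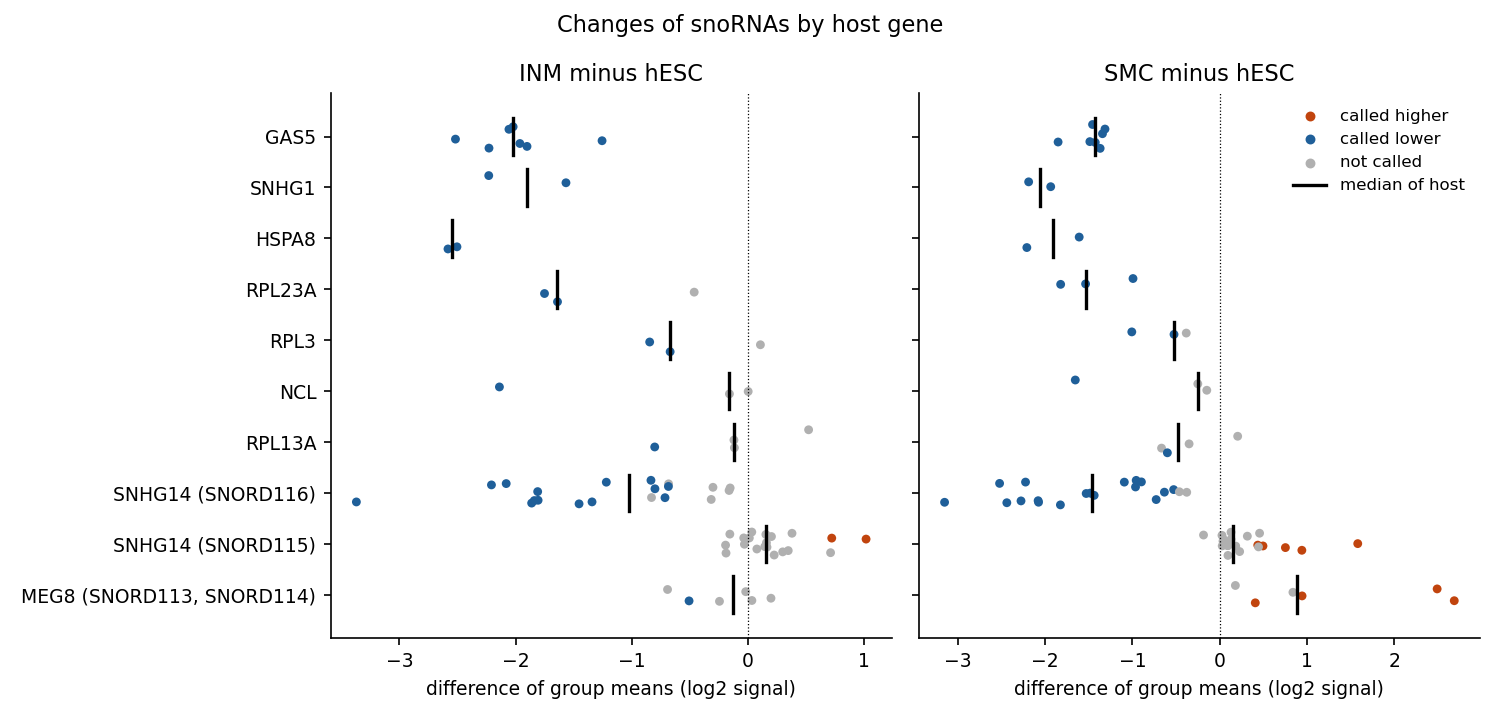
Difference of group means (log2 signal, x axis) of the snoRNAs of 10 host genes or families (y axis), for INM minus hESC and SMC minus hESC; each point is 1 snoRNA, coloured by its call, and black bars are medians. All snoRNAs of GAS5, SNHG1 and HSPA8 are called lower in both panels, while those of NCL and RPL13A are split.

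Other protein-coding hosts held 76 of the RNAs, of which 46 fell in INM and 2 rose (median -0.68). The 2 that rose were SNORA38B and SCARNA1. In this group 26 of the 46 falls were called whichever array was left out.

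SNORA74A (U19), a box H/ACA guide for large-subunit rRNA, showed the largest fall of all. It lies within both SNHG4, whose start is printed above with CTTT, and the protein-coding gene MATR3. Its signals were 9.63 and 9.62 in hESC, 5.88 and 6.21 in INM, then 6.44 and 6.66 in SMC. The fall of 3.58 in INM was 11.9-fold in signal (SE 0.15, limma adjusted p = 4.7e-05), and both later groups stayed far below the stem cell arrays.

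SNORA23, in an intron of the nuclear import receptor gene IPO7, dipped in mesoderm and was back in SMC. Its signals were 12.67 and 12.92 in hESC, 10.06 and 10.98 in INM, then 12.54 and 12.53 in SMC. It fell by 2.28 (SE 0.28, limma adjusted p = 0.00183) and then rose by 2.02 (limma adjusted p = 0.00457), a rise that reached an adjusted p of 0.0501 without SMC replicate 2. The SMC mean differed from hESC by -0.26 and was not called. IPO7 itself differed by 0.06 between INM and hESC and was not called.

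SNORA38B did the reverse. This snoRNA of NOL11, a gene for a protein of ribosomal RNA synthesis and processing, had 7.80 and 7.98 in hESC, 9.56 and 10.95 in INM, then 8.04 and 7.86 in SMC. It rose by 2.37 in INM (SE 0.40, limma adjusted p = 0.0059) and fell by 2.30 in SMC (limma adjusted p = 0.0102). The INM arrays were both above the other 4 but lay over 1 apart, and the rise was not called without hESC replicate 1 (limma adjusted p = 0.0544) nor the fall without either SMC array (up to 0.0898). NOL11 differed by -0.59 in INM and was not called (limma adjusted p = 0.0558).

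SNORA14A in POR, the gene of the reductase that serves cytochrome P450 enzymes, also dipped and came back. POR itself fell by 0.56 in INM (limma adjusted p = 0.0162) and was not called from INM to SMC, with a difference of 0.13. SNORA14A had 7.39 and 7.65 in hESC, 5.89 and 5.90 in INM, then 7.56 and 7.17 in SMC. Its differences were -1.63 and then 1.47, both called whichever array was left out. SNORD56B, inside SIPA1L1, had 5.38 and 5.66 in hESC, 3.21 and 2.94 in INM, then 4.45 and 4.50 in SMC, with differences of -2.45 and 1.4, and only its hESC arrays were above the low-signal limit. SNORA36C in AAK1 went from 5.04 and 5.19 to 4.01 and 3.95 and back to 5.26 and 5.05, with differences of -1.14 and 1.18. Its signals were near the low-signal limit in hESC and SMC and under it in INM. The hosts SIPA1L1 and AAK1 were called higher in INM, by 0.41 and 0.43.

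Of 15 listed RNAs known from cleavage of the ribosomal RNA precursor, 3 had a probe set of their own. These were SNORD14C and SNORD14E, 2 copies of U14, and SNORD13 (U13). U14 is needed for the small-subunit rRNA to be released from its precursor. SNORD14C and SNORD14E lie in HSPA8, the gene of a constitutive heat shock chaperone. SNORD14C had 10.99 and 11.08 in hESC, 9.09 and 7.98 in INM, then 9.45 and 9.40 in SMC, and fell by 2.50 in INM (SE 0.33, limma adjusted p = 0.00215). SNORD14E had 7.98 and 8.12 in hESC, 5.66 and 5.28 in INM, then 5.89 and 5.79 in SMC, and fell by 2.58 (SE 0.16, limma adjusted p = 0.000135). For both, all INM and SMC arrays were below the hESC arrays, while HSPA8 itself differed by -0.10 in INM and was not called.

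SNORD13, which is transcribed from its own promoter and not from an intron, kept a signal near the top of the range. It had 13.25 and 13.26 in hESC, 12.96 and 12.71 in INM, then 12.64 and 12.93 in SMC. Its difference of -0.42 in INM was not called (limma adjusted p = 0.0701), and that of -0.47 in SMC against hESC was called at 0.0469. This call was lost after median centring and without either hESC or either SMC array. Of the 3 SNORD13P pseudogenes 1 was called lower in INM, and the 3 differences ran from -0.76 to 0.03. The highest group means among these pseudogenes were 13.17 in hESC, 12.41 in INM and 12.87 in SMC, near those of SNORD13. Whether their probe sets and that of SNORD13 read the same RNA was not tested.

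Among the scaRNAs, SCARNA16 fell by 1.11 in INM. It is shown because its annotated span shares its end with the hairpin of MIR6516 (RefSeq, GRCh38.p14, chr17:77089417-77089493, plus strand), with the ACA box of box H/ACA RNAs in capitals, 3 bases before the end. The gene table gives no strand for SCARNA16, so the strand is that of the hairpin.
SCARNA16: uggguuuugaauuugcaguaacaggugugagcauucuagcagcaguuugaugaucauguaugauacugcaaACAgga

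SCARNA17, in SNHG22, had 9.36 and 9.24 in hESC, 8.39 and 7.77 in INM, then 9.05 and 9.0 in SMC. It fell by 1.22 in INM (SE 0.20, limma adjusted p = 0.00537), a call that reached 0.0505 without hESC replicate 1. Its later rise of 0.95 was not called without either hESC array or either SMC array (limma adjusted p up to 0.129). SCARNA1, in PPP1R8, was the only scaRNA called higher in INM. It had 5.29 and 5.57 in hESC, 6.19 and 6.33 in INM, then 5.87 and 5.72 in SMC, a rise of 0.83 (SE 0.14, limma adjusted p = 0.00604) that was called whichever array was left out.

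SCARNA12, in the prohibitin gene PHB2, fell late. Its signals were 10.84 and 10.93 in hESC, 10.59 and 10.20 in INM, then 9.20 and 9.32 in SMC. The difference between SMC and INM was -1.14 (SE 0.16, limma adjusted p = 0.00409), which reached 0.0509 without SMC replicate 1, and that between SMC and hESC was -1.63 (limma adjusted p = 0.000442). The host PHB2 was not called in any comparison. KPNA4, the importin gene that hosts SCARNA7, rose by 0.71 in INM and then fell by 0.82 in SMC (limma adjusted p = 0.00677 and 0.00634). SCARNA7 had 7.82 and 7.98 in hESC, 9.09 and 8.29 in INM, then 7.78 and 7.68 in SMC. Its difference of 0.79 in INM was just outside the threshold (limma adjusted p = 0.0505), and its fall of 0.96 in SMC was not called without either hESC array or either SMC array (limma adjusted p up to 0.196).

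The imprinted clusters, where only 1 parental copy is active, hold repeated box C/D snoRNAs with no known ribosomal target. On chromosome 15, SNHG14 carries the SNORD116 copies, whose loss from the paternal chromosome is tied to Prader-Willi syndrome, and the SNORD115 copies, which are known from brain. Copies of each family are near-identical in places, so reads of single copies are uncertain. Of 20 SNORD116 copies 14 fell in INM and 18 were lower in SMC than in hESC, with medians of -1.03 and -1.46. Of the 14 falls 11 were called whichever array was left out.

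SNORD116-28 had the largest fall of the family, from 8.36 and 8.64 in hESC to 5.43 and 4.82 in INM and 5.12 and 5.58 in SMC. The difference between INM and hESC was -3.37 (SE 0.25, limma adjusted p = 0.000252). SNORD116-13 had 9.37 and 9.66 in hESC, 7.34 and 7.27 in INM, then 6.98 and 7.0 in SMC, with differences of -2.21 in INM and -2.52 in SMC from hESC. SNORD116-11, SNORD116-29, SNORD116-26 and SNORD116-25 fell by 2.08, 1.86, 1.84 and 1.81 in INM. SNORD116-15, at group means of 13.40, 13.10 and 12.87, and SNORD116-20, at 12.23, 12.07 and 11.86, were not called in INM; these 2 copies were picked after their values were seen.

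From INM to SMC the family had a median difference of -0.29. No copy was called higher, although 4 of the 20 had differences above 0, up to 0.33. SNORD116-27, at 6.71 and 6.62 in INM and 6.01 and 5.85 in SMC, fell by a further 0.73 (limma adjusted p = 0.0108), and SNORD116-23 fell by a further 0.72 (limma adjusted p = 0.0459). Neither was called without SMC replicate 1 or SMC replicate 2 (limma adjusted p up to 0.102 and 0.243), and SNORD116-23 also lost its call without INM replicate 2.

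None of the 20 SNORD115 copies had a group mean above the low-signal limit. In INM 2 copies (10%) were called higher than in hESC, where 18.9% of all genes were. In SMC 5 copies (25%) were called higher than in hESC, where 19.7% of all genes were. The called copies all had signals of 1.93 to 4.99. The highest of them, SNORD115-32, had 3.51 and 3.01 in hESC, 4.54 and 4.01 in INM, then 4.69 and 4.99 in SMC, so that even its SMC arrays were below the limit. Its difference between SMC and hESC was 1.58 (limma adjusted p = 0.00295). SNORD115-31, the other one called in INM, had 2.26 and 1.98 in hESC and 2.65 and 3.03 in INM and was not called without either hESC array (limma adjusted p up to 0.132), and SNORD115-32 was not called in INM without hESC replicate 2 (0.114).

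Genes near SNHG14 on the chromosome did not share one direction. PWAR6, a noncoding RNA of the Prader-Willi region, had 9.73 and 9.88 in hESC, 5.33 and 6.25 in INM, then 6.49 and 6.08 in SMC, a fall of 4.01 in INM (SE 0.30, limma adjusted p = 0.000266). NDN, the gene of necdin, rose by 0.87 in INM (limma adjusted p = 0.00186). MAGEL2 was not called in INM, with a difference of 0.23.

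On chromosome 14, MEG8 carries the SNORD113 and SNORD114 copies, which are expressed from the maternal chromosome. Of the 6 copies measured 5 rose from INM to SMC and 4 were higher in SMC than in hESC, with medians of 0.89 for each comparison. Over all genes 9.94% and 19.7% were called higher in these comparisons. No copy had a group mean above the low-signal limit in hESC or INM, and 2 did in SMC. SNORD114-3 had 4.63 and 4.63 in hESC, 4.01 and 4.25 in INM, then 7.40 and 7.23 in SMC. Its SMC arrays were the only ones of the copy above the low-signal limit, with differences of 3.19 from INM (SE 0.13, limma adjusted p = 6.76e-05) and 2.69 from hESC (limma adjusted p = 4.03e-05). Its probe set is annotated with a second transcript besides the snoRNA.

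SNORD113-4 had 2.58 and 2.67 in hESC, 2.49 and 2.73 in INM, then 5.49 and 4.74 in SMC, and differed by 2.51 between SMC and INM (SE 0.24, limma adjusted p = 0.00111). SNORD114-26 rose by 0.91 to 4.61 and 4.84, still under the limit, and was not called without SMC replicate 2 (limma adjusted p = 0.0601). SNORD113-3 and SNORD114-6 rose by 0.87 and 0.65 at signals of 2.21 to 4.06 and were not called without SMC replicate 1 or 2 (limma adjusted p up to 0.186 and 0.0933). SNORD113-3 was also not called after median centring or without either hESC array.

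DLK1, the imprinted neighbour that encodes a Notch-like ligand, rose through both steps, from 6.25 and 6.10 in hESC to 8.18 and 9.39 in INM and 12.40 and 12.47 in SMC. MEG3, the noncoding RNA next to MEG8, had 6.26 and 6.35 in hESC, 6.12 and 6.05 in INM, then 6.32 and 6.17 in SMC and was not called in any comparison.

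**Figure D4:**
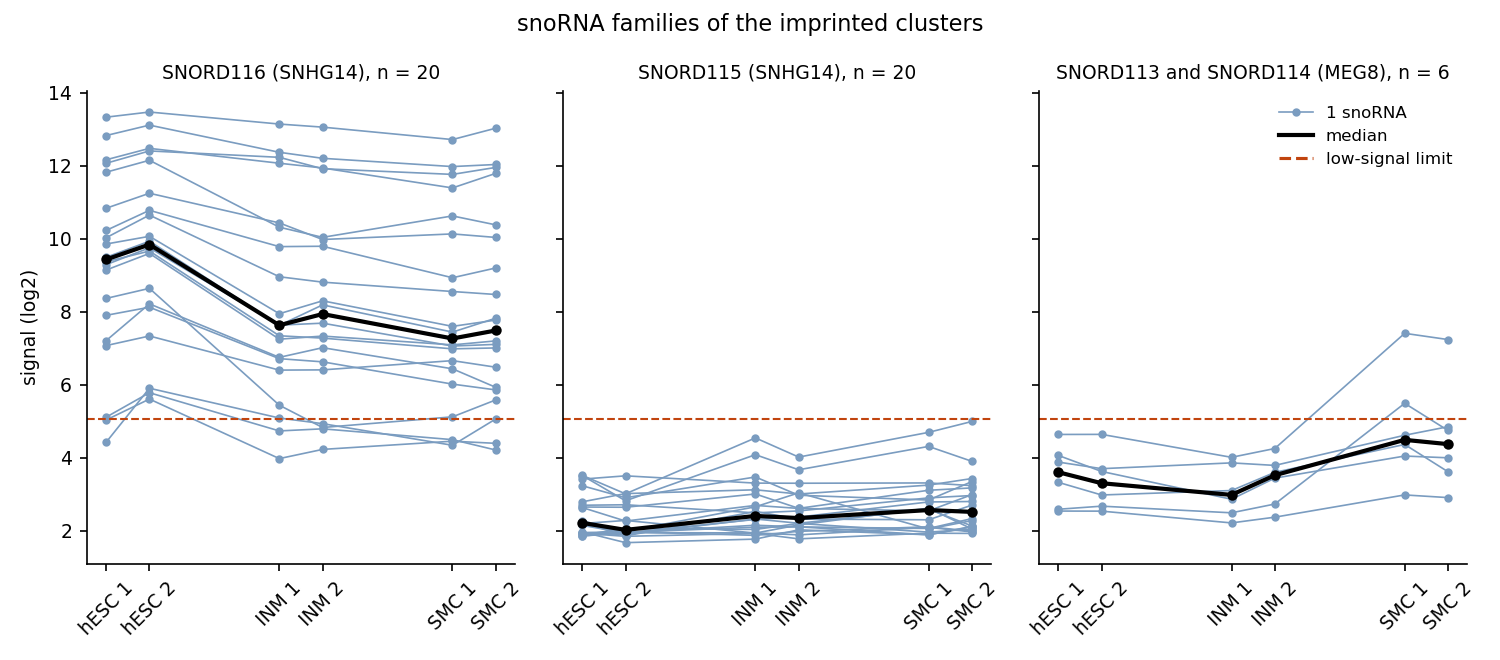
Signal (log2, y axis) in the 6 arrays (x axis) of the SNORD116, SNORD115 and SNORD113/SNORD114 copies in 3 panels; thin lines are single snoRNAs, black lines the median and the dashed line the low-signal limit of 5.044. SNORD116 copies are lower in SMC than in hESC for 18 of 20 by the test, SNORD115 copies stay under the limit, and 2 chromosome 14 copies are above it in an SMC array.

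Over all 192 RNAs, fewer were called in the step from mesoderm to smooth muscle, and more of the calls were rises than falls. From INM to SMC 34 rose and 7 fell, where 9.94% of all genes were called higher and 11.1% lower, and the median difference was 0.10 against -0.02 over all genes. This median became 0.05 with median centring and 0.02 with quantile normalization, and 74 of the 192 differences were below 0. Of the 113 RNAs that had fallen in INM, 27 then rose, 2 fell again and 84 were not called, but both comparisons use the INM arrays, so these counts are a description only. Among the classes 16 box C/D, 16 box H/ACA and 2 scaRNAs rose, with medians of 0.08, 0.24 and 0.06. SNORA7B, in the pseudogene RPL32P3, was among the 10 largest rises, at 7.25 and 6.93 in INM and 8.0 and 8.16 in SMC (0.99), but was not called without SMC replicate 1 or 2 (limma adjusted p up to 0.0964).

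The counts of this step changed with the array left out, for these RNAs as well as over all genes. The median difference of the 192 RNAs stayed between 0.08 and 0.15 in these fits. The calls were 11 higher and 0 lower without SMC replicate 1, and 7 and 1 without SMC replicate 2. Without INM replicate 1 they were 47 and 19, and without either hESC array 20 and 6. Only 6 of the 34 rises were called in every fit that left out an array, as were 0 of the 7 falls.

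In smooth muscle cells most of the RNAs remained below their stem cell level. Against hESC 104 were lower and 10 higher in SMC, where 17.6% of all genes were called lower and 19.7% higher, and the median difference was -0.60 against -0.05 over all genes. Of the 113 that fell in INM, 90 were also lower in SMC than in hESC, 22 were not called and 1, SNORD114-3, was higher, though its fall in INM was not called after median centring or without either hESC or either SMC array (limma adjusted p up to 0.124). These 2 comparisons share the hESC arrays. Of the 10 called higher, 5 were SNORD115 copies and 4 chromosome 14 copies, and the other was SNORA60. The lower calls numbered 65 without hESC replicate 2 and 66 without SMC replicate 1, and the higher calls 6 in each of these fits. Over all genes both counts were smaller in these fits too. Median centring gave 90 lower and 15 higher, and lower calls as a share of the calls over all genes went from 47.1% to 33.5%.

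SnoRNAs and their hosts could be compared where the host had a probe set of its own, which held for 92 RNAs in 70 hosts. Host probe sets were matched by symbol, and their position on the genome was not checked. In INM against hESC the RNA and its host had the same sign in 54 of the 92, and the RNA's difference was below that of its host in 75. The median of RNA minus host was -0.67, and the median difference of the 70 hosts was -0.08. Across these 92 RNAs, some of which share a host and all of which share the arrays, Pearson's r was 0.112 and Spearman's rho 0.17, given as a description.

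Of the 58 RNAs that fell and had a measured host, the host was called lower for 14, higher for 6 and neither for 38. Over all genes 14.8% were called lower and 18.9% higher. An example with a host that rose was SNORA70E in RAB30, at -0.64 against 1.42, picked after its values were seen and a near-identical copy of SNORA70. The lncRNA host SNHG17 fell by 0.74, a call lost after median centring or without either hESC or either SMC array (limma adjusted p up to 0.157), and 2 of its 3 snoRNAs fell. ZFAS1 differed by -0.53 and was not called (limma adjusted p = 0.0571), beside the fall of 2.09 of SNORD12C.

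**Figure D5:**
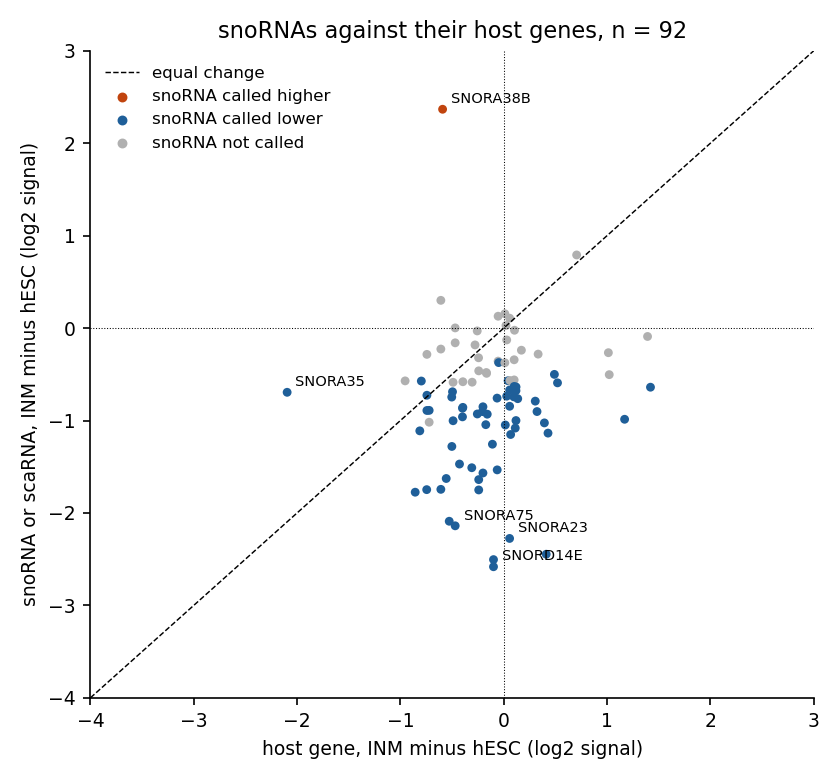
Difference between INM and hESC (log2 signal) of 92 snoRNAs and scaRNAs (y axis) against that of their host gene (x axis); each point is 1 RNA, coloured by its call, and the dashed line marks equal change. Points lie below the dashed line for 75 of the 92, and SNORA38B stands alone at the top with a difference of 2.37.

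Transcripts of the proteins that build and use snoRNAs were read in 7 lists of 74 genes. In INM against hESC 8 were lower and 4 higher, where 14.8% and 18.9% of all genes were. In SMC 9 were lower than in INM, where 11.1% of all genes were, and 22 were lower than in hESC, where 17.6% of all genes were. Of these calls 2 of 8, 1 of 4, 0 of 9 and 4 of 22 were made whichever array was left out, and median centring kept 5 of the 8 falls in INM and 12 of the 22 lower calls in SMC against hESC. Of the box C/D core proteins measured, NOP58 fell by 0.78 in INM (SE 0.13, limma adjusted p = 0.00542), and FBL, the methylase fibrillarin, differed by -0.33 and was not called. All 4 box H/ACA core proteins were without a call in all 3 comparisons, with INM differences of -0.21 for DKC1 (dyskerin), -0.23 for NOP10, -0.04 for NHP2 and 0.04 for GAR1.

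Among 9 assembly factors, the ATPase gene RUVBL1 fell by 0.63 in INM (limma adjusted p = 0.0457), a call lost after median centring and with any array but INM replicate 2 left out (up to 0.191). None of 9 Cajal body proteins was called in INM. In SMC 4 of them (44.4%) were lower than in hESC, where 17.6% of all genes were. These were GEMIN5, ICE1, GEMIN2 and TGS1, by 0.83, 0.78, 0.64 and 0.63. GEMIN5 was called whichever array was left out, but ICE1 was not without SMC replicate 2, and GEMIN2 and TGS1 were not after median centring or without hESC replicate 1 or either SMC array (limma adjusted p up to 0.0557, 0.144 and 0.155).

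For this list and the 2 that follow, 18.9% of all genes were called higher in INM and 14.8% lower. Of 10 genes for the trimming and capping of RNA ends, DIS3 (a nuclease of the exosome) rose by 0.83 in INM. DBR1, which opens intron lariats, rose by 0.56, while EXOSC5 fell by 0.69. The DBR1 call was lost without either hESC array and that of EXOSC5 without hESC replicate 2 (limma adjusted p up to 0.124 and 0.0541). Of 25 proteins of the U3 processome, the complex that cuts the small-subunit rRNA precursor, 2 rose (TBL3 and NOP14, by 0.71 and 0.61) and 2 fell in INM (IMP3 and WDR43, by 0.57 and 0.50). None of these 4 was called without either hESC array (limma adjusted p up to 0.117, 0.125, 0.059 and 0.163). Of the 25, 7 were lower in SMC than in hESC, where 17.6% of all genes were, and 1 of the 7 calls was made whichever array was left out. UTP20, the call that was, fell by 1.38 (SE 0.16, limma adjusted p = 0.000958). Of 15 genes of RNA polymerase I and its factors 3 (20%) fell in INM, where 14.8% of all genes did. TAF1D, POLR1B and POLR1G fell by 1.06, 0.66 and 0.43. TAF1D itself carries snoRNAs in its introns and was called whichever array was left out, whereas POLR1B was not without hESC replicate 2 (limma adjusted p = 0.0699) and POLR1G was lost after median centring and with 5 arrays left out in turn (up to 0.181).

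Other noncoding RNA genes and the ribosomal protein genes on the same arrays gave smaller shares of falls in INM. Of 173 microRNA precursor genes 60 fell and 1 rose (median -0.29), and of 634 lncRNA genes 128 fell and 20 rose (median -0.20). Of 20 spliceosomal RNA genes 8 fell and 2 rose (median -0.21), and of 67 ribosomal protein genes 11 fell and 3 rose (median -0.13). The differences between these groups and the snoRNAs were not tested.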

How the data were processed

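The deposited table holds log2 signals of 33297 probe sets on 6 arrays (the values ran from 1.36 to 14.1), and RMA and limma are named without versions in the submitters' processing notes. The genome build is not given in the sources used here. Symbols came from the platform annotation, updated through a RefSeq gene table. Probe sets with 1 symbol were kept (19460), with several (1754) or none (12083) not tested, and for each gene that with the highest mean was used. Each group took its arrays from the sample titles.

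Group means were fitted over 6 arrays with limma 3.58.1 in R 4.3.3 (lmFit, eBayes, 3 residual and 3.556 prior degrees of freedom), adjusting over 18417 genes. The script was tested on simulated data. Alternatives were median centring, quantile normalization, a low-signal filter, a replicate block, the mean of a gene's probe sets, the 4 arrays of a comparison, trended and robust eBayes, platform symbols and leaving out each array. When a group is left with 1 array, it is assumed to vary like the others.

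Hosts are genes enclosing the RNA in the gene table (180 assigned), read without strand, although same-strand hosts were planned. Of the 192 RNAs 5 had over 1 probe set, and the 2 of SNORA10 hold identical values. The RNAs and lists were chosen with earlier results of these data known. Genes named were, per comparison, the 10 largest called rises and 10 largest called falls, per snoRNA cluster of 3 or more up to 4 with the largest change, the cleavage snoRNAs, up to 4 of each protein or host list, and members of counts up to 5; others are marked as picked after their values were seen or stand as examples of a count. Not all genes so listed are described. The snoRNAs of 1 host gene are counted in the totals but not reported here singly.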

Additional observations from a re-analysis of the deposited data

How the results depend on the processing

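No result changed sign under any alternative among those called. For INM against hESC, the higher calls (4) became 10 with median centring and 7 with quantile normalization, and 2 to 8 when 1 array was left out; the median difference became -0.55 and -0.59, and -0.87 to -0.65 when 1 array was left out. The higher calls of SMC against INM (34) became 20 with the 4 arrays of the comparison alone and ran from 7 to 47 when 1 array was left out, and the lower calls (7) from 0 to 19. For SMC against hESC, the higher calls (10) became 3 with the low-signal filter and 6 to 13 when 1 array was left out, the lower calls (104) ran from 65 to 117, and the median became -0.46 with median centring. The cause of these changes was not tested, except that a fit with fewer arrays has fewer samples and the filter tests fewer genes. With the replicate block, higher and lower calls were 6 and 114, 30 and 8, and 7 and 99 in the 3 comparisons. The numbers do not pair the arrays, since deviations of same-numbered arrays correlated at 0.07, -0.12 and -0.07. The mean of a gene's probe sets, trended eBayes and platform symbols moved no count of calls by over 1.5 times. The number of arrays limits the precision, and signals under 5.044 were near the level of probe sets without a symbol.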

Other observations

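A further 76 probe sets carried the name of a snoRNA or scaRNA together with other symbols, for example that of a host gene, and were not among the 192. Their median difference between INM and hESC was -0.83, with 67 of 76 below 0. Over all 1754 probe sets with several symbols the median was -0.23, with 1295 below 0. From INM to SMC their median was 0.16, and from hESC to SMC -0.75. By shared host, 6 probe sets shared with SNHG1 had medians of -1.87, 0.34 and -1.39 in INM against hESC, SMC against INM and SMC against hESC. The 3 shared with GAS5 had -2.04, 0.70 and -1.22, and the 6 shared with TAF1D -1.39, 0.26 and -1.13. The 5 shared by copies of SNORD3, the U3 RNA that guides cleavage of the ribosomal RNA precursor and is transcribed from its own promoters, had -0.42, 0.17 and -0.25. These signals cannot be given to a single gene, were not tested, and the host and the snoRNA share in them was not told apart.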
